A study of Mus musculus with 6 samples.

Results

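The BCL2 family decides whether a cell keeps its mitochondria intact or dies by the mitochondrial route of apoptosis, and 10 of its genes were taken from the series as the subject here. They are the survival genes Bcl2, Bcl2l1 and Mcl1, the pore-forming effectors Bax and Bak1, and the BH3-only death genes Bcl2l11, Bid, Bad, Pmaip1 and Bbc3. Each was found by its symbol in the platform annotation and represented by whichever of its probe sets was brightest on average (log2 scale, all 6 arrays). A probe set is the group of short probes that reads a stretch of a transcript, and its signal is the deposited array intensity on a linear scale. The annotation used here gave 9 of the 10 genes, with 29 probe sets, out of 18193 genes in all, and Bax was not analysed here. All 9 were above the floor of 47.6, the signal under which probe sets were treated as too dim to read, on each of the 6 arrays.

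The series asks what loss of the proprotein convertase furin does to T cells of C57BL/6 mice aged 10 to 11 weeks. All mice carried loxP-flanked Fur alleles. Controls had the genotype Fur flox/flox, and the others, labelled Furin cKO, had CD4 cre Fur flox/flox, in which Cre is driven by the Cd4 promoter and acts from thymocyte development on. The sorted populations were CD4+ CD62L+ CD44- naive cells stimulated for 2 days on plate-bound antibodies to CD3 and CD28 at 5 µg/ml each (activated), CD4+ CD62L- CD44+ memory cells, and CD4+CD25+FoxP3+ regulatory cells. Memory and regulatory cells were not cultured. A single array stands for each population and genotype, 6 in all, the labels do not give the number of animals behind it, and naive cells without stimulation were not analysed here.

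Several measures touch every comparison. The activated arrays had 49.4% and 49.8% of their probe sets reach the floor, against 62.6% to 67.4% on the other 4. The spiked control bioB read 753.8 and 852.3 on the activated, 4930 and 4078 on the memory and 2503 and 2213 on the regulatory arrays, and the 3' to 5' ratio of actin was 1.22 and 1.24, 1.93 and 1.56, and 1.35 and 1.36, control first. Population and hybridisation cannot be told apart. The T cell markers Cd3e, Cd3g, Cd4 and Cd247 were above the floor on all arrays. Of 8 markers of regulatory cells, 6, among them Ikzf2, Gpr83 and Il2ra, were above all other arrays on both regulatory arrays. Ctla4 read 11033 and 10619 there but 11925 and 10316.5 on the activated arrays, and the only Foxp3 probe set read 50.4 and 33.8 there against 1358 and 1116 on the memory arrays, which goes against the labels. The only Furin probe set read 515.8 and 468.3 in activated and 547.2 and 410 in regulatory cells, control first, but 647.4 and 2203 in memory cells, so directions between genotypes rest on the labels. The 10 myeloid and dendritic cell markers summed to 648.2 to 676.4 on the activated, 8863 to 16925 on the memory and 2115.5 to 2195 on the regulatory arrays. The 7 B cell markers summed to 2502 to 2601, 13240 to 15639 and 16184 to 18636 in the same order. Most of each sum was Ighm alone, at 2429 and 2306, 12987 and 9365, and 16773 and 13928, control first. No marker of these lists read 0 on any array. On the activated arrays, however, only 2 and 2 of the B cell markers and 5 and 3 of the myeloid and dendritic cell markers reached the floor. The part of these cells in the results was not tested, and in such bulk RNA fewer cells of a type and less RNA per cell cannot be told apart.

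Survival proteins such as BCL2, BCL-XL (the product of Bcl2l1) and MCL1 hold the effectors BAX and BAK in check on the outer mitochondrial membrane. BH3-only proteins, among them BIM (Bcl2l11), PUMA (Bbc3) and NOXA (Pmaip1), bind the survival proteins and so free the effectors, which then let cytochrome c into the cytosol. In T cells, BCL2 is known to be kept up by interleukin 7, BCL-XL to be induced by CD28 costimulation, and BIM to end immune responses.

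In activated cells Bcl2l1 rose and Bcl2 fell against both memory and regulatory cells, and the effector gene Bak1 and the BH3-only gene Bid fell with Bcl2. Pmaip1 and Bbc3 rose against memory cells, and Bcl2l11 rose by its brightest probe set alone. Against memory cells 4 members rose and 3 fell, 7 of 9, where 44.3% of all 15811 genes tested were called, 17.3% higher and 26.9% lower. Against regulatory cells 2 rose and 3 fell, 5 of 9, where 44.6% of all genes were called, 18.1% higher and 26.5% lower. Calls are adjusted p-values under 0.05 from limma, fitted to all 6 arrays with population and genotype as factors. With 1 array a group, these p-values measure how far a population difference varied between the genotypes, not between animals.

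**Figure D1:**
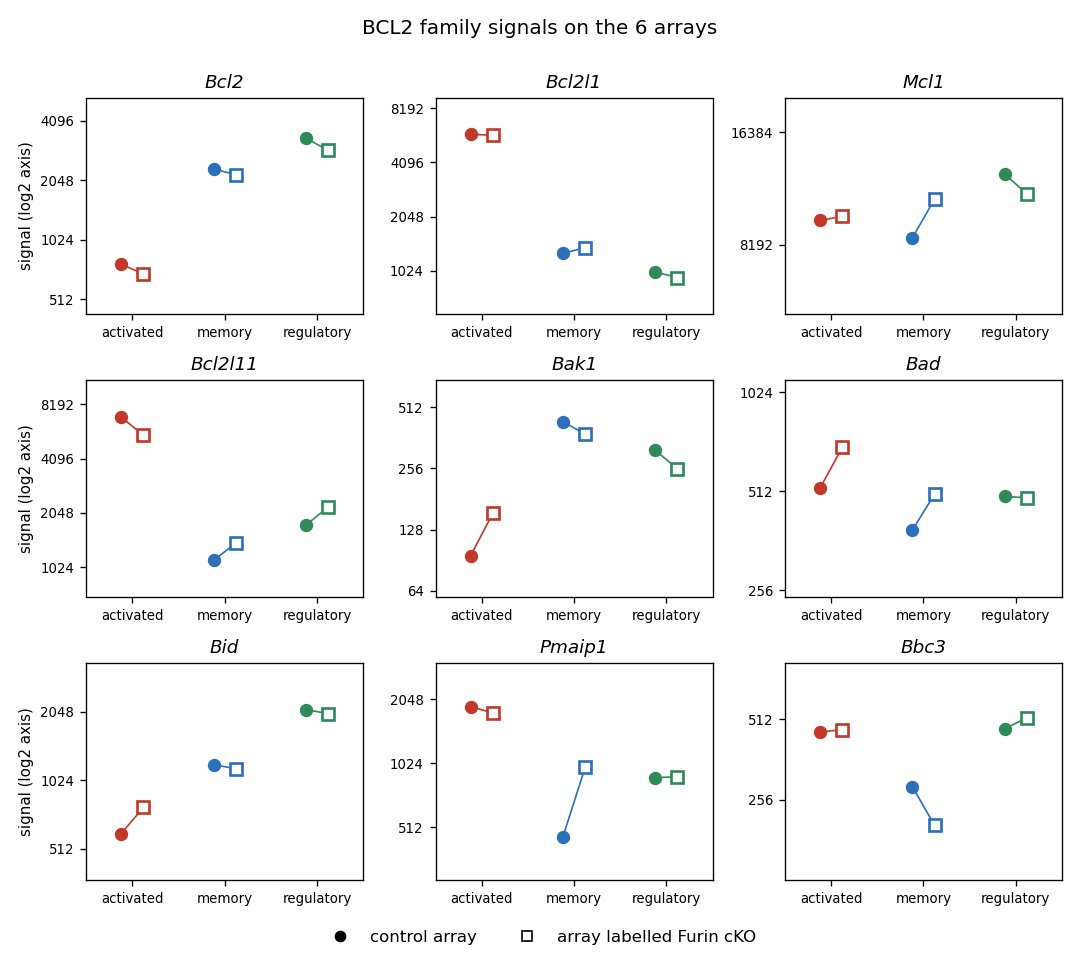
Signal of each BCL2 family gene (log2 axis, a scale of its own for each gene) on the 6 arrays, with filled circles for control arrays and open squares for arrays labelled Furin cKO. Bcl2l1 sits at 5798.5 and above on both activated arrays and at 1376 and below on the other 4, and Bcl2 at 769.2 and below against 2179.5 and above.

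Bcl2, the founding survival gene, read 769.2 in activated cells of the control and 686.5 in those labelled Furin cKO. Memory cells gave 2335 and 2179.5, and regulatory cells 3347.5 and 2893.5, control first. The levels were ordered regulatory, memory, activated, and no pair of populations overlapped. Bcl2 was 3.10-fold lower in activated than in memory cells (log2 difference -1.63, SE 0.13, adjusted p = 0.0027). It was 4.28-fold lower than in regulatory cells (log2 difference -2.10, SE 0.13, adjusted p = 0.0022). Its 4 other probe sets fell too, with log2 differences from -2.17 to -1.05 against memory and from -2.96 to -1.64 against regulatory cells, each called. Regulatory and memory cells, neighbours in the order, differed by 0.46 (SE 0.13, adjusted p = 0.17).

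Bcl2l1 encodes BCL-XL and went the other way. It read 5860 and 5798.5 in activated, 1278 and 1376 in memory and 1007 and 937.7 in regulatory cells, control first. Both activated arrays stood far above the rest, and the genotypes lay close together within each population. The gene was 4.40-fold higher in activated than in memory cells (log2 difference 2.14, SE 0.14, adjusted p = 0.0021) and 6.00-fold higher than in regulatory cells (log2 difference 2.58, SE 0.14, adjusted p = 0.0021). Of its 3 other probe sets, the brightest read 377.3 and 388.7 in activated cells against 196.8 to 247.8 on the other arrays. Its log2 differences were 0.79 and 0.82, both called, and so much smaller than those of the main probe set. The next had 0.43 and 0.33, neither called. It was dim, at 92.2 and 78.4 in activated, 83.9 and 33.4 in memory and 96.3 and 11.5 in regulatory cells, control first. Its memory and regulatory cKO arrays were below the floor, and on the control arrays regulatory cells read highest. The last probe set was below the floor on all arrays. With the mean of all probe sets the gene's differences were 0.84 and 0.93, and both stayed called.

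Mcl1 encodes a survival protein with a short half-life. It read 9518 and 9761 in activated, 8555 and 10854 in memory and 12649.5 and 11201 in regulatory cells, control first. The arrays of activated and memory cells overlapped, with a log2 difference of 0.00 (SE 0.18), and activated cells were 0.30 below regulatory cells (SE 0.18, adjusted p = 0.26). With the mean of all probe sets the latter became -0.83 and was called (adjusted p = 0.0082). The 5 other probe sets did not read the gene alike. Against memory cells 3 were called lower, at -0.72, -0.85 and -1.07, and 1 was called higher at 0.79. Against regulatory cells 4 of the 5 were called lower, with log2 differences from -1.65 to -0.70, and the fifth gave -0.05. Between regulatory and memory cells all 6 probe sets read higher in regulatory cells, by 0.19 to 0.84, and none was called.

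Bak1, the effector measured here, was dim in activated cells. It read 95.2 and 153.7 there, 433.7 and 378.2 in memory and 313.6 and 255.4 in regulatory cells, control first. No activated array reached any other array. The gene was 3.35-fold lower than in memory cells (log2 difference -1.74, SE 0.30, adjusted p = 0.013) and 2.34-fold lower than in regulatory cells (-1.23, SE 0.30, adjusted p = 0.033). The second call was kept in 2 of 6 alternatives that used all arrays, with values from -1.23 to -0.45. Its other probe set read 5.4 and 5.9 in activated cells, below the floor, and 20.3 to 79.3 elsewhere, and was not called.

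Bcl2l11 encodes BIM, which binds all the main survival proteins. Its brightest probe set read 6951.5 and 5526 in activated, 1117 and 1390 in memory and 1752 and 2203 in regulatory cells, control first. By this probe set the gene was 4.97-fold higher in activated than in memory cells (log2 difference 2.31, SE 0.23, adjusted p = 0.0036) and 3.15-fold higher than in regulatory cells (1.66, SE 0.23, adjusted p = 0.0076). All 4 other probe sets went the opposite way. The next brightest read 1276 and 1234 in activated, 1545 and 1734 in memory and 1728 and 2004 in regulatory cells. The log2 differences of the 4 ran from -0.93 to -0.36 against memory cells, with 1 called, and from -1.47 to -0.32 against regulatory cells, with 2 called. With the mean of all probe sets the gene's differences were 0.03 and -0.26, neither called, so a direction for the gene rests on the choice of probe set. The sources used here do not say where in the transcripts each probe set lies.

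**Figure D2:**
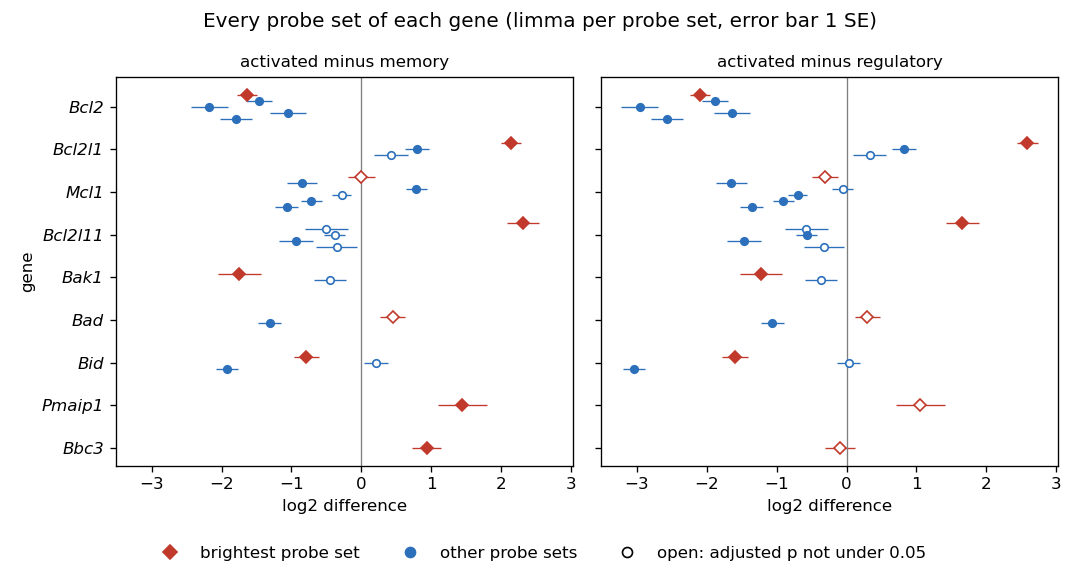
Log2 difference (x axis) of activated minus memory and activated minus regulatory cells for every probe set of each gene, fitted per probe set with limma, with bars of 1 SE and open symbols where the adjusted p was not under 0.05. All Bcl2 probe sets lie left of 0 and all plotted Bcl2l1 probe sets right of it, whereas the brightest probe set of Bcl2l11 lies at 2.31 and its 4 others between -0.93 and -0.36 against memory cells; the Bcl2l1 probe set below the floor on all arrays is not plotted.

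Bid, which is cut by caspase 8 and so links death receptors to mitochondria, read 596.6 and 776.3 in activated, 1196 and 1150.5 in memory and 2090 and 2009 in regulatory cells, control first. The order was regulatory, memory, activated, as for Bcl2, with no overlap. Bid was 1.72-fold lower in activated than in memory cells (log2 difference -0.79, SE 0.18, adjusted p = 0.028) and 3.01-fold lower than in regulatory cells (-1.59, SE 0.18, adjusted p = 0.0051). The first call was lost with the floor at the 20th percentile (adjusted p = 0.064). Another probe set showed the same order more widely, at 71.4 and 65.9, 245.9 and 274.6, and 533.4 and 595.1, with called differences of -1.92 and -3.04. A dim further one, at 90.3 to 119 on the 6 arrays, differed by 0.21 and 0.03, neither called. Regulatory cells stood 1.75-fold above memory cells (0.80, SE 0.18), which did not pass at an adjusted p of 0.12.

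Bad, a BH3-only gene whose protein is held inactive by growth factor signals, had 2 probe sets that went opposite ways. The brighter read 523.3 and 695.3 in activated, 390 and 501.5 in memory and 493.6 and 488.8 in regulatory cells. Its log2 differences of 0.45 and 0.30 were not called (adjusted p = 0.11 and 0.25). The first was called at 0.74 with quantile normalization and 0.70 with cyclic loess (adjusted p = 0.035 and 0.036), and both turned negative, at -0.43 and -0.38, with the mean of probe sets. The other read 237.2 and 229.1 in activated cells against 539 and 621.9 in memory and 507.5 and 466.3 in regulatory cells. It was called lower against both, by -1.31 and -1.06 on the log2 scale (adjusted p = 0.0077 and 0.012).

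Pmaip1 encodes NOXA, which mainly opposes MCL1, and has 1 probe set. It read 1897 and 1769 in activated, 462.6 and 980 in memory and 877.4 and 884.8 in regulatory cells, control first. Both activated arrays were above the other 4, and the memory arrays lay on either side of the regulatory ones. The gene was 2.72-fold higher in activated than in memory cells (log2 difference 1.44, SE 0.34, adjusted p = 0.032). That call was lost with quantile normalization (adjusted p = 0.053) and at a floor of the 20th percentile (0.058). The gene read 2.08-fold above regulatory cells (1.06, SE 0.34), with an adjusted p of 0.072, which became 0.043 at a floor of the 60th percentile and 0.045 with an intensity trend.

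Bbc3 encodes PUMA, a BH3-only protein induced by p53, and has 1 probe set, which stood out for its low signal in memory cells. It read 458.7 and 467.4 in activated, 286 and 205.4 in memory and 472 and 517.7 in regulatory cells, control first. It was 1.91-fold higher in activated than in memory cells (log2 difference 0.93, SE 0.21, adjusted p = 0.026), a call lost with the floor at the 20th percentile (adjusted p = 0.056). Against regulatory cells the difference was -0.09 (SE 0.21), which turned to 0.29 with quantile normalization and 0.34 with cyclic loess. Regulatory cells read 2.04-fold above memory cells (1.03, SE 0.21, adjusted p = 0.11).

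**Figure D3:**
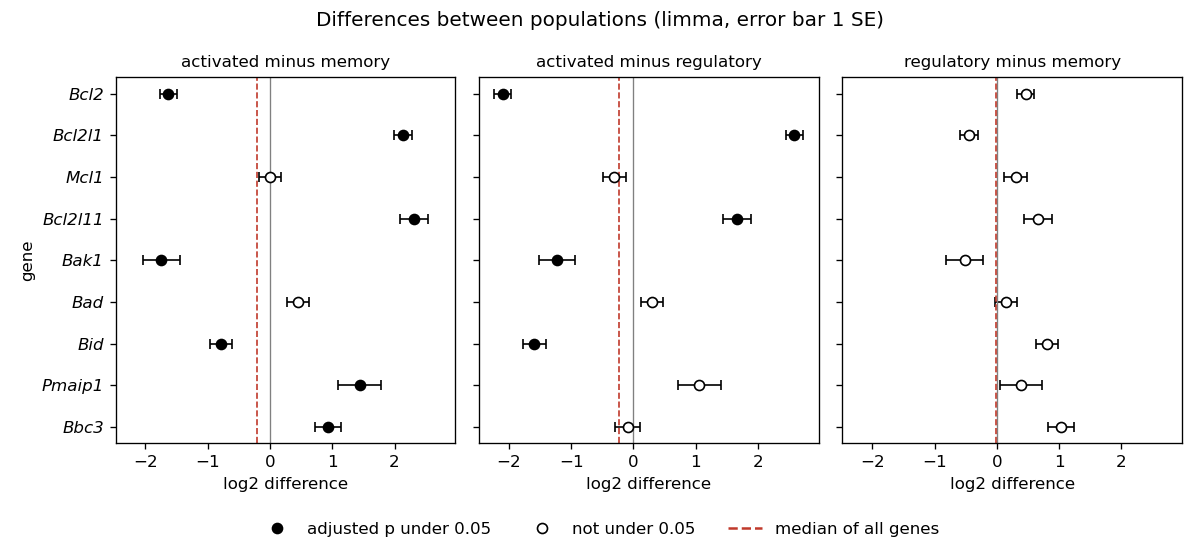
Log2 differences between populations (x axis) for the 9 genes, with bars of 1 SE from limma; filled points have an adjusted p under 0.05 and the dashed line is the median of all genes tested. Each gene is shown by its brightest probe set. Bcl2, Bak1 and Bid lie left of 0 and Bcl2l1, Bcl2l11, Bad and Pmaip1 right of it in both comparisons with activated cells. No point is filled for regulatory minus memory cells.

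All genes together were not centred on 0 in these comparisons. The median log2 difference over the genes tested was -0.21 for activated minus memory and -0.23 for activated minus regulatory cells, and 0.00 for both with quantile normalization. Measured from those medians, the called members ran from -1.53 (Bak1) to 2.53 (Bcl2l11) against memory cells and from -1.87 (Bcl2) to 2.81 (Bcl2l1) against regulatory cells. The median log2 difference of all 9 members, measured from 0 and not from those medians, was 0.45 and -0.09. Arrays did not overlap between activated and memory cells for 8 of 9 members, beside 66.4% of all genes, and between activated and regulatory cells for 9 of 9, beside 69.4%.

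Fits that left out 1 array called a smaller share of all genes than the fit to all 6 arrays, in both comparisons with activated cells. This fall is to be read beside the members called in them, which were fewer or as many. For activated against memory cells 3 were called without the activated control, 4 without the activated cKO, 3 without the memory control, 3 without the memory cKO, 2 without the regulatory control and 2 without the regulatory cKO array. Bcl2 and Bcl2l1 were called in 6 of these 6 fits, Bcl2l11 in 2, Bak1, Bbc3 and Pmaip1 in 1 each and Bid in 0. For activated against regulatory cells the counts were 2, 5, 4, 4, 0 and 0 in the same order of arrays. Without the regulatory control or cKO array that comparison called 0 of all 15368 and 15250 genes tested.

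Regulatory and memory cells were not told apart by the test for any member. The comparison called 0 of 9 members and 0% of all genes in limma, and at an unadjusted p under 0.05 it had 5 of 9 members beside 3359 of 15811 genes. Those 5 were Bcl2, Bcl2l11, Bid and Bbc3, higher in regulatory cells, and Bcl2l1, lower there. Arrays did not overlap for 7 of 9 members, beside 44.7% of all genes.

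Bcl2l1, Bcl2l11 and Bcl2 had the widest range over the arrays, 2.64, 2.64 and 2.29 on the log2 scale, and the 250 bases before a start site of each are shown because the main probe sets of these genes spread most widely; for Bcl2l11 the other probe sets went the opposite way. The sequences are from RefSeq, build GRCm38.p6, on the strand of the gene, and capitals mark motif matches on either strand. For genes with several start sites the window with the most matches was taken.
Bcl2, chr1:106714291-106714540, minus strand: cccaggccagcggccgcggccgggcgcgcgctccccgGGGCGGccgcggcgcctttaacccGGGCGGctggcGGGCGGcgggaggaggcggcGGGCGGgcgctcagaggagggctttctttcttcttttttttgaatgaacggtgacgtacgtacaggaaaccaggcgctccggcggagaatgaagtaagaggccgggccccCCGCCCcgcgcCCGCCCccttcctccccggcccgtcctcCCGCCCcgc
Bcl2l1, chr2:152830718-152830967, minus strand: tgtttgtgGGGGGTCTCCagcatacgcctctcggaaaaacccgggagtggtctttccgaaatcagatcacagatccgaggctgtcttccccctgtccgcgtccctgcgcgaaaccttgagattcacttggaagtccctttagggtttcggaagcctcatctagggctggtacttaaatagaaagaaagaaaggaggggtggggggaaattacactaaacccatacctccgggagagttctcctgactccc
Bcl2l11, chr2:128125788-128126037, plus strand: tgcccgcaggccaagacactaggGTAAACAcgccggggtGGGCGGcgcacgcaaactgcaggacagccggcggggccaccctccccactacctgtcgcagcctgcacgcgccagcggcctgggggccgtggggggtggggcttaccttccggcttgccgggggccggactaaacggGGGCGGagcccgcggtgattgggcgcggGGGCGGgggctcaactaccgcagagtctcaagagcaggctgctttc

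The Bcl2 window held 7 GC boxes (GGGCGG) and 74.8% G and C. The Bcl2l1 window, with 53.2% G and C, held 1 match to the NF-kB motif and no GC box, and the Bcl2l11 window, with 72% G and C, held 3 GC boxes and 1 FOXO motif (GTAAACA). No match overlapped that of another motif. Of 32851 windows of this length in the RefSeq table, 32.7% held a GC box, 3.9% the NF-kB motif and 3.17% the FOXO motif. The other motifs searched were AP-1 (TGANTCA), CRE (TGACGTCA), STAT (TTCNNNGAA) and the E-box (CACGTG), which 6.75%, 1.55%, 7.02% and 6.02% of windows held and these windows did not. These are matches of letters and not binding measurements. For Bcl2l1 and Bcl2l11 the window shown was chosen for its matches, whereas the shares are of windows not so chosen. The other Bcl2l1 windows held 0 matches, and the other Bcl2l11 window held 2 GC boxes and no FOXO motif.

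The genes whose pattern was most like theirs were sought among 9446 genes above the floor on all arrays, by the root mean square difference of mean-centred log2 signals over the 6 arrays. For Bcl2l1 these were Mrpl3, a mitochondrial ribosomal protein, at 0.051, Cpd, a carboxypeptidase, at 0.062 and Rmdn3 at 0.062. Mrpl3 read 6582 and 6380 in activated cells against 995 to 1455 on the other arrays. For Bcl2 they were Suco (0.069), the transcription factor Elf4 (0.082) and Sh3bp1 (0.089), with Suco at 999.2 and 848.8 in activated and 3107 to 4672 in the other cells. For the brightest Bcl2l11 probe set the nearest were Ehbp1 (0.13), Utp18 (0.14) and Cyp20a1 (0.15), so its pattern had no match as near as those of Bcl2l1 and Bcl2.

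The wider death and survival pathway was read from 6 lists of other genes, of which 60 were tested. Each was read by its brightest probe set, and any other probe sets of these genes were not checked singly. Against memory cells 17 were called higher and 20 lower in activated cells, 37 of 60, and against regulatory cells 18 higher and 21 lower, 39 of 60. Of all genes, 17.3% were called higher and 26.9% lower against memory cells and 18.1% and 26.5% against regulatory cells, and the counts of the single lists are to be read against these shares. The lists together had a median log2 difference of -0.25 and -0.13, beside -0.21 and -0.23 for all genes. Receptors for survival cytokines had 1 of 5 called higher and 2 lower against memory, and 0 higher and 3 lower against regulatory cells. Il7r, the interleukin 7 receptor, read 225.4 and 372.2 in activated, 18389 and 21717 in memory and 7317 and 9034 in regulatory cells, 69.0-fold below memory and 28.1-fold below regulatory cells (adjusted p = 0.0017 and 0.0018). Il2rb, the interleukin 2 receptor beta chain, was 11.1-fold and 16.1-fold lower (adjusted p = 0.0019 and 0.0018).

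Apoptosome, caspase and mitochondrial genes were called higher for 8 and lower for 4 of 18 against memory cells, and for 9 and 5 against regulatory cells. Aifm1, a mitochondrial flavoprotein, read 4798 and 4379 in activated cells against 1019 to 1355 on the other arrays and was 4.33-fold above regulatory cells (adjusted p = 0.0022). Other BCL2 relatives had 2 called higher and 3 lower of 11 in each of these comparisons. Bnip3, a mitochondrial protein of the mitophagy pathway, was 5.54-fold above memory and 5.05-fold above regulatory cells (adjusted p = 0.0034 and 0.0040).

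A list of inducers of the family also holds genes that do not induce it, such as Cdkn1a and Mdm2. It had 4 higher and 4 lower of 13 against memory cells and 5 higher and 4 lower against regulatory cells. Cdkn1a, the cell cycle inhibitor p21 and a p53 target, read 8879 and 8979 in activated cells against 65.4 to 326.3 elsewhere, 85.9-fold above memory and 38.5-fold above regulatory cells (adjusted p = 0.0020 and 0.0023). Myc was 5.57-fold and the NF-kB subunit gene Rel 3.53-fold above memory cells (adjusted p = 0.0021 and 0.0024). Ddit3, the stress factor CHOP, was 6.33-fold below them (adjusted p = 0.0028).

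Death receptor genes had 2 higher and 4 lower of 8 against memory cells and 2 higher and 3 lower against regulatory cells. Tnfsf10, which encodes the death ligand TRAIL, was 6.17-fold below memory and 10.1-fold below regulatory cells (adjusted p = 0.0047 and 0.0031). Fasl, the Fas ligand gene, read 1820 and 1451 in activated, 2094 and 1433 in memory and 206.3 and 184.3 in regulatory cells and was 8.33-fold above regulatory cells (adjusted p = 0.0020). A list named for MCL1 turnover had 0 of 5 genes called higher and 3 lower in each comparison. Whether each of its genes acts on MCL1 was not tested. Trib1, a pseudokinase on that list, was below the floor on both activated arrays and at least 7.46-fold lower than in regulatory cells (adjusted p = 0.0020). Between regulatory and memory cells limma called 0 of the 60, with 24 at an unadjusted p under 0.05.

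The genotypes differed little in the family, and no difference within a population has a replicate or a test. In activated cells 5 members read higher and 4 lower on the array labelled Furin cKO, and 0 of 9 passed 2-fold, beside 0.762% of 10756 genes. Bak1 was 1.61-fold higher (95.2 and 153.7), Bad 1.33-fold (523.3 and 695.3) and Bid 1.30-fold higher (596.6 and 776.3), and Bcl2l11 was 1.26-fold lower (6951.5 and 5526). The log2 difference of Bak1, 0.69, became 0.09 at a floor of the 60th percentile and 0.35 with the mean of its probe sets. These 4 members were beyond 0.21, the median absolute deviation of all log2 folds of this pair scaled to an SD. The share of all genes beyond it was not counted, so the 4 cannot be said to stand out. Other probe sets of Bad (237.2 and 229.1) and of Bid (71.4 and 65.9, 119 and 97.1) read lower on the Furin cKO array.

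In memory cells Pmaip1 read 462.6 in the control and 980 in the Furin cKO sample, 2.12-fold above it, and was the only member of 9 past 2-fold, beside 9.26% of 14235 genes. Bbc3 was 1.39-fold lower (286 and 205.4), about the scaled deviation of 0.47 for this pair. The other 7 members differed by less than that. On the same pair Furin itself was 3.40-fold above the control, against the label, the proliferation gene Mki67 read 1260 and 5261, the summed granulocyte markers 695.4 and 6563 and the summed myeloid markers 16925 and 8863, control first. The summed plasma cell markers read 12990 and 25874. Igha (2754 and 14980), Jchain and Prdm1 read higher on the Furin cKO array, and Xbp1 (8596 and 6327) and Sdc1 lower. The summed B cell markers read 15639 and 13240. Ms4a1 (297.4 and 1285), Cd79a, Cd79b and Pax5 read higher, and Ighm (12987 and 9365), Cd22 and Blk lower. The part of all these in the members' differences was not tested.

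In regulatory cells 3 members read higher and 6 lower, and 0 of 9 passed 2-fold, beside 5.26% of 14590 genes. The largest difference was that of Bcl2l11 at 1.26-fold higher (1752 and 2203), at the scaled deviation of 0.33, followed by Bak1 at 1.23-fold lower (313.6 and 255.4). Pmaip1, past 2-fold in memory cells, read 877.4 and 884.8 here. On this pair Mki67 read 1074.5 and 2395.5, the summed granulocyte markers 1075 and 2336 and the summed plasma cell markers 25536 and 17184, and their part was not tested.

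Of the other pathway genes measured, 0 of 57 in activated, 2 of 59 in memory and 2 of 60 in regulatory cells differed past 2-fold between the genotypes. In memory cells Cdkn1a read 65.4 in the control and 165.2 in the Furin cKO sample, 2.53-fold above it, and Jun, an AP-1 gene, was 6.20-fold higher. In regulatory cells Jun was 3.89-fold lower, and Bok, a BCL2 relative named after its values were seen, read 22.3, below the floor, in the control and 190.4 in the Furin cKO sample.

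**Figure D4:**
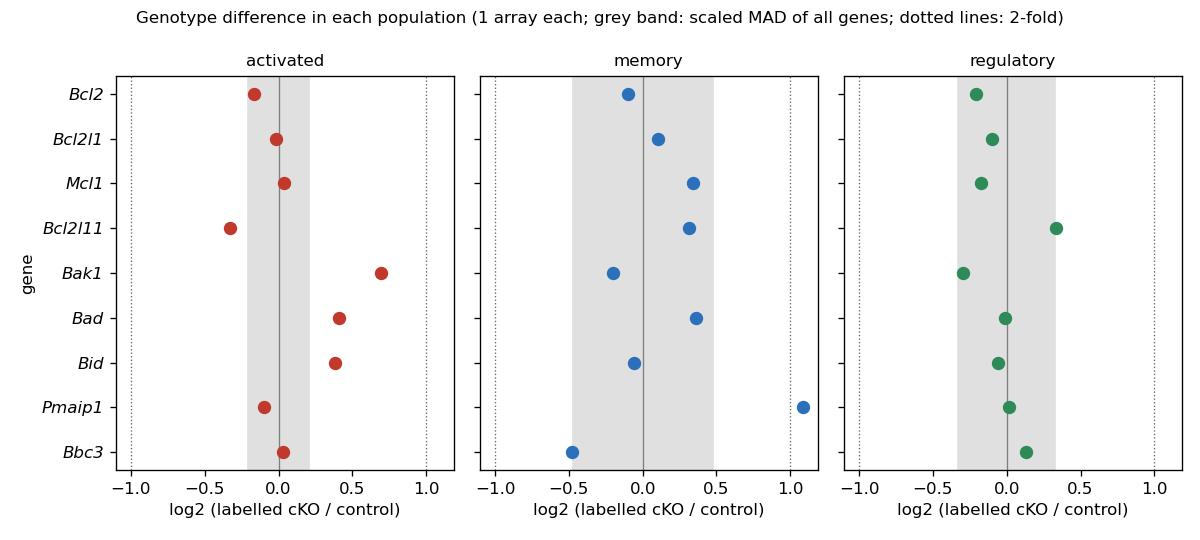
Log2 ratio of Furin cKO to control signal (x axis) for the 9 genes in each population, 1 array each; the grey band is the scaled median absolute deviation of all genes of that pair and dotted lines mark 2-fold. Pmaip1 in memory cells, at 1.08, is the only point beyond 2-fold.

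Over the 3 populations, limma called 0 of 9 members and 0% of 15811 genes for genotype, and at an unadjusted p under 0.05 it had 0 members beside 444 genes. The largest member value was that of Pmaip1 at 0.33 (SE 0.28), which became -0.04 without either or both memory arrays. By main probe sets Bcl2 was the only member of 9 with a single direction, beside 18.7% of all genes. It was lower on the Furin cKO array by 1.12-fold in activated, 1.07-fold in memory and 1.16-fold in regulatory cells, with a log2 difference of -0.16 (SE 0.11, adjusted p = 0.82). Only 2 of its 5 probe sets were lower in all populations, and with their mean the difference in regulatory cells was 0.04.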

How the data were processed

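The deposited intensity values came from MAS5 as run by the authors, per the submitters' processing notes; the sources used here do not give its version or settings. Per the labels' protocols, cRNA was made from 5 µg of Trizol-extracted total RNA for Affymetrix arrays. The mean after trimming 2% of probe sets at each end was 500 on each array. Probe sets with 1 symbol (34945 of 45037) were kept and named by Entrez identifier. Signals under the pooled 40th percentile (47.6) were raised to it before log2. Genes above this floor on some array (15811) were fitted with limma 3.58.1 in R 4.3.3, with population and genotype as factors, 2 residual degrees of freedom and Benjamini-Hochberg adjustment; the code was tested on simulated data. A probe-set fit was added after seeing the data. The number of arrays limits the precision.

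The members and gene lists were chosen with earlier results of these data known. Named are all members, Furin, up to 4 called pathway genes each way in each comparison with activated cells, up to 3 pathway genes each way past 2-fold between genotypes in a population and above the floor on both arrays, and the 3 nearest patterns of the 3 members with the widest range. Alternatives were quantile normalization, cyclic loess, other floors, the mean of probe sets, an intensity trend and fits without arrays. Members with no named probe set were not analysed here.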

Additional observations from a re-analysis of the deposited data

Results flagged for a closer look

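The brightest probe set of Bcl2l11 went opposite ways between the genotypes in activated and regulatory cells. Its log2 ratio of Furin cKO to control signal was -0.33 in activated and 0.33 in regulatory cells, a gap of 0.66 between the populations. In memory cells it was 0.32. Of the gene's 5 probe sets, 3 were lower in activated and higher in regulatory cells, 2 were lower in both, and 5 were higher in memory cells. This difference was not tested, since each value rests on 2 arrays.

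The AP-1 gene Jun, one of the genes that induce the family, read 393.8 on the control and 2441 on the array labelled Furin cKO of memory cells, 6.20-fold higher, and 814.5 and 209.5 in regulatory cells, 3.89-fold lower. The gap between the log2 folds was -4.59 for regulatory minus memory and -2.42 for regulatory minus activated cells, where Jun read 346.6 and 477.4. These differences were not tested.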

How the results depend on the processing

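Among 450 tested member values under alternatives, 40 changed sign, of which 4 were past 1 SE on both sides or called. With the mean of probe sets Bad turned to -0.43 against memory and -0.38 against regulatory cells and Bcl2l11 to -0.26 against regulatory cells; without the memory control array Pmaip1 turned to -0.18 for regulatory minus memory cells (range without 1 array -0.18 to 0.95). With the floor at the 20th percentile 4 members in place of 7 were called against memory cells. At that floor 6325 of 17869 genes were called, in place of 7003 of 15811. In both comparisons with activated cells, fits without 1 array called a smaller share of all genes than the fit to all arrays. Leaving out 1 array gave 2 to 4 members and 12 to 24 pathway genes against memory, and 0 to 5 members and 0 to 33 pathway genes against regulatory cells; these fits have fewer degrees of freedom. For regulatory minus memory cells 4 pathway genes and 448 of all genes were called, in place of 0, once the floor was the 60th percentile, and 4 and 155 with an intensity trend. Of all genes called, 39.2% were higher in activated than memory cells, but 51.4% with quantile normalization and 52.3% with cyclic loess; against regulatory cells these shares were 40.6%, 55.1% and 56.2%. The counts of members past 2-fold between genotypes were 0, 1 and 0 under all 5 alternatives. No paired analysis was possible because the labels give no replicate numbers and each group has 1 array.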

Other observations

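The genes in this paragraph were chosen after their values were seen. The voltage-dependent anion channels of the outer mitochondrial membrane were brighter in activated cells: Vdac1 read 10438 and 10513 there against 3011 to 4792 on the other arrays, and Vdac3 read 9361 and 9227 against 3290 to 4868, both called against both populations. Bcl2l13, a BCL2-like gene, read 1537 and 1490 in activated cells against 323.3 to 550.2 elsewhere, with called log2 differences of 1.58 and 1.96. Bmf, another BH3-only gene, read 48.7 and 63.3 against 187 to 297.9, with called differences of -2.09 and -2.22. Casp9, the caspase that the apoptosome activates, read 162 and 109.6 against 277.6 to 342.3, with called differences of -1.20 and -1.23, and Xiap, an inhibitor of caspases, read 1566 and 1608 against 2712 to 5162, with -0.84 and -1.54, also called.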
